A study of Rattus norvegicus with 7 samples.

Results

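The proteins of the cytosolic ribosome were followed through the first week after an embolic stroke. Members were the genes on the array whose annotated symbol began with Rpl or Rps and a number or with Rplp and a number, together with Rpsa, with the S6 kinases (Rps6k) left out and each gene read from its brightest probe. This gave 67 of the 13337 genes on the array, 43 of them named for the large subunit and 24 for the small subunit. The rule itself reads gene names and probe brightness only.

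RNA came from the brain of male Wistar rats of 280 to 320 g after an embolus had been injected into the middle cerebral artery (eMCAo), a model that the series title links with spontaneous reperfusion. There was 1 array for normal brain and 1 array each for 12, 24, 48, 72, 120 and 168 hrs after occlusion, each made from 400 ng of total RNA. The authors describe their normal rats as having had no surgery. Animals taken right after surgery and embolus served them as sham controls, and no such array is among these. In a difference from normal, surgery and occlusion therefore cannot be told apart. The normal array carries the same tissue label, ischemic brain, as the others, and the sources used here do not say how many animals each array holds or which part of the brain was taken. The 7 arrays have positions on 1 chip in order of time, so position and time cannot be told apart. With no replicate at any time, a difference between an array and the normal array has no error and no test, and differences are described by size as at least 1.5-fold or at least 2-fold.

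A ribosome is built from a large subunit, which forms peptide bonds, and a small subunit, which reads the mRNA. Most of its proteins are needed in equal numbers, and growing or dividing cells make more of them. Most mRNAs of ribosomal proteins begin with a C followed by an unbroken run of pyrimidines (C and T), the 5′ terminal oligopyrimidine tract or TOP, through which the kinase mTOR sets their translation. TOP control acts on translation, which these RNA arrays do not measure.

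The sequences around the annotated start sites show which members have pyrimidine runs there. Start windows of 30 bases, 15 on each side of the annotated start, were read on the gene's own strand from RefSeq (GRCr8) for 55 of the 67 members, and the longest run of C and T of at least 6 bases is in capitals. Base 16 of each window is the annotated start, and a run that ends before it, as in Rplp2, lies outside the annotated mRNA. The members printed are a selection. First come some with high differences from normal, then some among the lowest of their subunit. Last come genes of the symbol pattern that are paralogs or partners and not standard ribosomal proteins.
Rpl10a, chr20:6390518-6390547, plus strand: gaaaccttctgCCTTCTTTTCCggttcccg
Rpl31, chr9:49143096-49143125, plus strand: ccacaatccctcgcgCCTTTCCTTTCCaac
Rps2, chr10:14251833-14251862, plus strand: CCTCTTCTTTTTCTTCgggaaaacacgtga
Rpl39, chrX:121195882-121195911, minus strand: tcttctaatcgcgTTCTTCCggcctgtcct
Rps12, chr1:23500060-23500089, plus strand: gcacagaagcccagcagagcgcttaaatac
Rps24, chr16:96502-96531, plus strand: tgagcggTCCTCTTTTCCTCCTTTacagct
Rps7, chr6:50999431-50999460, minus strand: tcgcgagagctgtgTCTCTTTCTaagccgg
Rpl29, chr8:115947628-115947657, plus strand: gggCCTTTCTCTTTCTCTTCCggtcccagg
Rplp2, chr1:205975906-205975935, plus strand: CCTTTCgccgccggacgccgccgaggtcgc
Rpl22l1, chr2:113683181-113683210, plus strand: gctccgtggatatccggttccgagttgcgc
Rps19bp1, chr7:113693009-113693038, minus strand: cagcgtgtgggcggggcttggcagcatgtc

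A run of at least 6 pyrimidines stood anywhere in 42 of the 55 member windows (76.4%), against 28.3% of all 33469 windows of the same length and 26.3% of the 8738 that belonged to genes detected on any array. Runs of at least 8 stood in 61.8% of the members and in 11.4% of all windows. By the stricter measures, a run of at least 6 held the start base itself in 30 of the 55 members (54.5%, against 8.26% of all windows), and a C at the start followed by at least 4 pyrimidines, the form of the tract, stood in 21 (38.2%, against 2.63%). Of the members printed, Rpl10a, Rpl31, Rpl39 and Rps7 had that form. Both subunits held the run about equally often, with 27 of 35 large and 15 of 20 small subunit genes. By mean difference from normal, Rps24, Rps23, Rps7 and Rpl29 were among the lowest of their subunits and had a run over the start base. Rplp2, Rpl3l, Rpl22l1 and Rps19bp1, also among the lowest, had none there. Of the highest, Rpl10a, Rpl31, Rpl39 and Rps2 had such a run, though in Rps2 it ended at the start base. Rpl7a, Rpl5, Rpsa, Rps4x and Rps12, also among the highest, had none over the start base. Rps4x and Rps12 had none anywhere in the window. No window was available for Rpl30 and Rps29, also among the lowest, or for Rps20, also among the highest. At 72 hrs the median log2 difference from normal was 0.39 in the 40 detected members with a run anywhere in the window and 0.43 in the 10 without, and the ranges, -0.65 to 1.15 and -0.20 to 1.0, overlapped. A match describes the letters of the annotated start only, and transcripts can start elsewhere.

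Of the 67 members, 62 were detected on all 7 arrays (39 large and 23 small), that is, above the 98th percentile of the background noise, which lay between 8.72 and 10.1 intensity units. Rpl11, Rpl12 and Rpl34 were detected on no array, Rps19 only at 24 hrs (13.5 units) and Rpl36a on 6 arrays. Only Rps9 had more than 1 probe. Members were bright as a group: they made up 20 of the 100 brightest genes on the normal array, 34 at 72 hrs and 29 at 168 hrs, and 6.81%, 9.54% and 8.56% of the summed deposited intensity. Brightness depends on the probe as well as on the transcript, so changes are compared below between arrays, and a level is set against another gene's only to say that a probe is dim. Ribosomal protein genes also have many processed copies in mammalian genomes, and the probes were not aligned to the genome here.

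The members were on the whole above normal from 24 hrs onward and close to normal at 12 hrs. On the log2 scale after quantile normalization, the median difference of the large subunit genes from normal was 0.065, 0.31, 0.30, 0.39, 0.36 and 0.26 on the arrays of 12, 24, 48, 72, 120 and 168 hrs. For the small subunit genes the medians were 0.026, 0.25, 0.32, 0.40, 0.25 and 0.33 at the same times. A log2 difference of 0.39 is a fold of 1.31, so the typical shift was small. The median over all detected genes stayed between -0.069 and -0.022 at the 6 times. Counted by direction alone, 42 of 63 members were above normal at 12 hrs, against 46.0% of all genes. At 24 hrs the count was 57 of 64 (47.8% of all genes), and on the later arrays 55, 53, 52 and 54 of 63, beside 46.4%, 45.0%, 44.5% and 43.2%. Most members thus lay above normal from 24 hrs on.

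**Figure D1:**
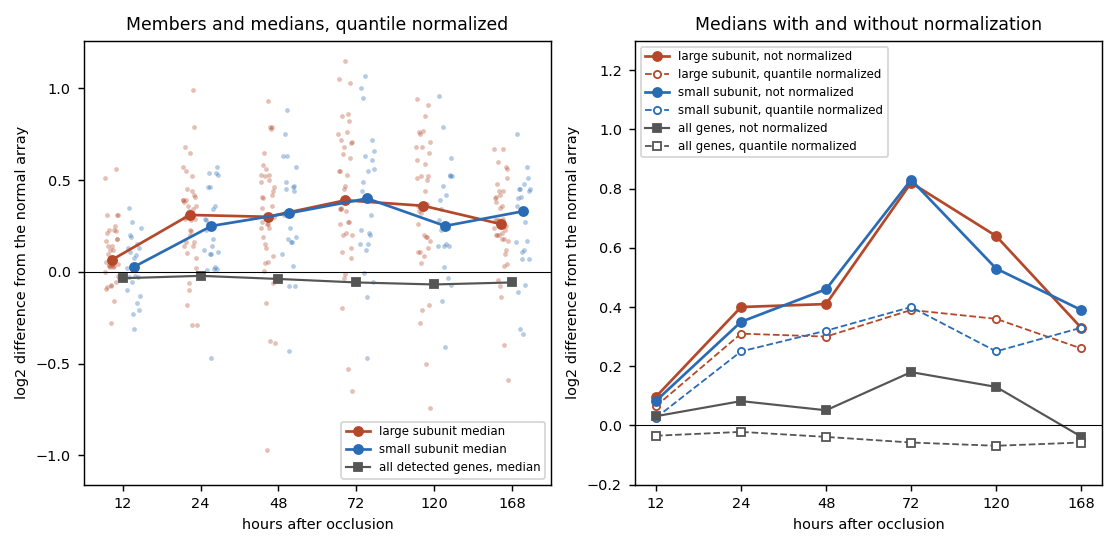
Left, log2 difference from the normal array (vertical axis) against hours after occlusion for the 62 members detected on all 7 arrays (small points), with the medians of the large subunit, the small subunit and all detected genes. Right, the same medians with quantile normalization (dashed) and without normalization between arrays (solid); both subunit medians are highest at 72 hrs, at 0.39 and 0.40 normalized and 0.82 and 0.83 not normalized.

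How far the members stood above normal depended on the scaling of the arrays. Without normalization between arrays the medians at 72 hrs were 0.82 (large) and 0.83 (small), a fold of 1.77 and 1.78, and the median over all genes was itself 0.18 in place of -0.058. Relative to that median of all genes, the members as a whole stood 0.65 higher at 72 hrs without normalization and 0.45 with quantile normalization. Median scaling shifts each array by 1 constant, so its value of 0.65 is the same by construction. The medians of both subunits were above 0 at the 6 times under each alternative run. Fold changes below are those after quantile normalization unless said otherwise.

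The 2 subunits had similar medians at each time. The large subunit median minus the small subunit median was 0.039, 0.061, -0.014, -0.0084, 0.10 and -0.074 in order of time. The sign changed between times, and each gap was small beside the spread among members of a subunit, whose SD was 0.40 in the large and 0.38 in the small subunit at 72 hrs. Genes are not replicates and the arrays were single, so no test of the gap was possible.

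The number of members past the 1.5-fold rule differed between the times. At 12 hrs none of the 63 members that were detected on either array was 1.5-fold higher, against 7.07% of all genes. At 24 hrs 4 of 64 were 1.5-fold higher (10.8% of all genes), and at 48 hrs 9 of 63 (11.8%). At 72 hrs the count was 21 of 63, or 33.3%, against 14.6% of all genes. At 120 hrs it was 15 (15.5% of all genes) and at 168 hrs 4 (9.16%). The members thus lay below the share of all genes at 12 hrs and above it at 72 hrs and, with 23.8%, at 120 hrs. At 24, 48 and 168 hrs they were near it, at 6.25%, 14.3% and 6.35%. Their median was above that of all genes at each time. With no normalization the count at 72 hrs was 49 of 63, or 77.8%, against 23.2% of all genes.

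Low values were rarer. A 1.5-fold lower level was found for 0, 0, 1, 1, 2 and 1 members at the 6 times in order, against 4.93%, 9.55%, 10.3%, 13.9%, 14.6% and 5.32% of all genes. A 2-fold higher level was found for 5 members at 72 hrs (7.94% of 63, against 8.28% of all genes) and for 0 at the other times, where it was found for 3.16%, 4.55%, 6.04%, 9.09% and 5.01% of all genes in order. A 2-fold lower level was found for Rpl30 on the 120-hr array (1.59% of members, against 4.78%) and for 0 members otherwise, beside 0.903%, 2.69%, 2.63%, 4.01% and 0.914% of all genes. After quantile normalization, then, few members differed by 2-fold. Without normalization 19 of 63 (30.2%) were 2-fold higher at 72 hrs, against 11.7% of all genes, and 8 (12.7%) at 120 hrs, against 11.5%. Of the 62 members detected on all arrays, 38 were above normal at all 6 times (61.3%, against 17.0% of the 7770 genes detected on all arrays), 50 at the 5 times from 24 hrs on (80.6%, against 22.5%), and 5 were below normal at all 6 times (8.06%, against 28.2%).

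The time of the highest level was shared by many members. Of the 62, 33 were highest at 72 hrs (53.2%, against 11.6% of the 7770 genes), 22 of them large and 11 small subunit genes. The 12, 24, 48, 120 and 168-hr arrays were highest for 3, 6, 9, 4 and 7 members. The lowest of the 6 arrays was that at 12 hrs for 45 members (72.6%, against 22.1% of genes). Without normalization 56 of the 62 were highest at 72 hrs (90.3%, against 29.1% of genes), and 59 had a deposited intensity above normal there (95.2%, against 64.4%), the exceptions being Rpl3l, Rplp2 and Rps24. As a measure of how far single arrays differ, the closest pair, 72 and 120 hrs, had an SD of the log2 difference of 0.314 over 8646 genes, which holds both time and array error. Over the 63 members, 120 hrs stood 0.084 below 72 hrs at the median, with an SD of 0.179.

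**Figure D2:**
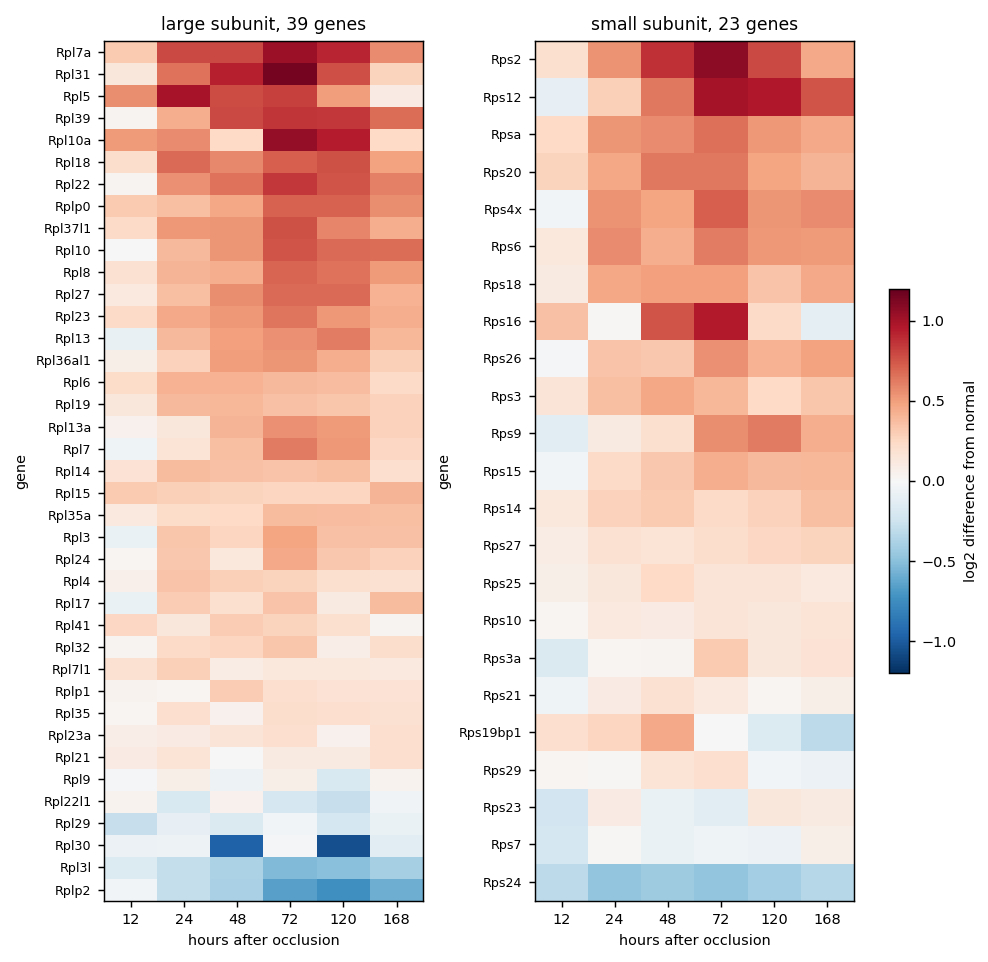
Log2 difference from the normal array (colour) for the 39 large and 23 small subunit genes detected on all 7 arrays, in rows ordered by their mean, at 6 times in columns. Of the 62 rows, 33 are highest at 72 hrs, while Rplp2, Rpl3l and Rps24 lie below 0 throughout and Rpl30 is deep blue at 48 and 120 hrs.

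Among the large subunit genes, the highest mean differences from normal belonged to Rpl7a, Rpl31, Rpl5, Rpl39 and Rpl10a. Rpl7a, a structural protein bound to the large rRNA, read 3650 on the normal array and 4655, 6526, 6890, 9758, 8345 and 5851 at 12, 24, 48, 72, 120 and 168 hrs. It was 1.73-fold above normal at 24 hrs and reached 2.04-fold by 72 hrs. Rpl31, which lies at the exit of the peptide tunnel, read 252 in normal brain and 296, 457, 550, 746, 539 and 323 in the same order. Its 2.22-fold at 72 hrs was the highest normalized value of any member. By the ratio of deposited intensities at 72 hrs, the dim Rps16 was higher, at 3.22 beside 2.96 for Rpl31. Rpl31 and Rpl7a were both highest at 72 hrs and closer to normal at 168 hrs, Rpl31 at 1.2-fold and Rpl7a at 1.48-fold.

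Rpl10a, the protein of the mobile L1 stalk beside the exit site for tRNA, followed another course. Its intensity was 3605 in normal brain, then 5161, 5564, 4635, 9838, 8444 and 4497. The normalized folds were 1.42, 1.48, 1.18, 2.07, 1.92 and 1.18, so it was up at 12 hrs, when most members were near normal, and dipped at 48 hrs. Rpl5, which carries 5S rRNA into the ribosome and with Rpl11 can bind the p53 regulator MDM2, was also early. It read 83.9 in normal brain and 142, 210, 179, 212, 158 and 93.2 after occlusion, or 1.48-fold and 1.98-fold above normal on the acute arrays and 1.07-fold on the 168-hr array. Rpl5 and Rpl10a had the highest 12-hr values of the members detected on all arrays, at 0.56 and 0.51 on the log2 scale.

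Rpl39, a short protein of the tunnel wall, was late. Its intensities were 2858 in normal brain and 2979, 4096, 5326, 6640, 6069 and 4704 after occlusion. The fold was 1.02 at 12 hrs and stayed between 1.59 and 1.81 from 48 to 168 hrs. Rpl10, which is added in one of the last steps of large subunit assembly, was similar, level with normal (1.0-fold) on the 12-hr array, 1.31-fold a day after occlusion, 1.69-fold by 72 hrs and 1.59-fold at the end of the week.

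Among the small subunit genes, Rps2, Rps12, Rpsa, Rps20 and Rps4x had the highest means. Rps2, a protein of the mRNA entry channel, read 1178 on the normal array and 1392, 1826, 2315, 3171, 2392 and 1659 at the 6 times. Its fold was 1.14 at 12 hrs, 2.10 by 72 hrs and 1.37 at the end of the week. Rps12, a protein of the beak of the small subunit, read 1054 in normal brain and 1035, 1365, 1712, 2680, 2414 and 1866. It was at 0.934 of normal at 12 hrs and 2.0-fold, 1.94-fold and 1.68-fold at 72, 120 and 168 hrs, so its level stayed high to the end of the week.

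Rpsa, also known as the laminin receptor precursor, read 8764 in normal brain and 10521, 13356, 14488, 19255, 16538 and 12764 after occlusion, with folds between 1.18 and 1.57. Rps20, of the head of the small subunit, lay between 1.2-fold and 1.55-fold, and Rps4x, the X-linked S4 gene, was at 0.98 of normal at 12 hrs and at 1.38-fold to 1.65-fold thereafter. Rps6, the target of the S6 kinases, was added here after its values were seen, and was 1.09-fold at 12 hrs and 1.36-fold to 1.52-fold at the later times. Rps16 was also picked after seeing its values: at 41.6 units it was the dimmest of the 62 in normal brain, and its folds were 1.28, 1.01, 1.68, 1.93, 1.18 and 0.928. These small subunit genes were highest at 72 hrs, as most of the large subunit was.

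**Figure D3:**
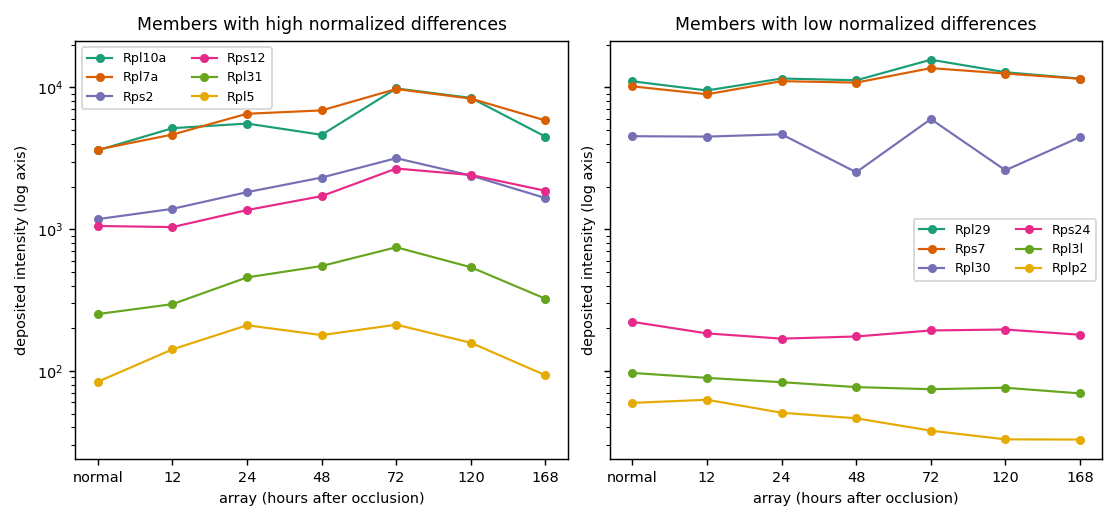
Deposited intensity on a log axis (vertical) for 12 members on the normal array and at 6 times (horizontal), 1 array per point. Left, 6 members with high normalized differences, highest at 72 hrs in intensity; right, 6 with low normalized differences, among which Rpl30 drops to 2522 at 48 hrs and 2604 at 120 hrs, and Rps24, Rpl3l and Rplp2 end the week below normal.

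A few members did not follow the rest. Rpl30, a large subunit protein whose yeast form blocks the splicing of its own transcript, read 4530 in normal brain and 4502, 4674, 2522, 5984, 2604 and 4469 at the 6 times. The arrays at 48 and 120 hrs were thus low and the others near or above normal. The log2 differences were -0.97 at 48 hrs and -1.05 at 120 hrs, but -0.01 at 72 hrs, between them. The gene has a single probe, and no replicate of either array exists to set against it.

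The 3 proteins of the stalk that recruits elongation factors differed. Rplp0, its base, read 17642 in normal brain and 20757, 26819, 27105, 37526, 33408 and 25693 after occlusion, or 1.24-fold to 1.64-fold. Rplp1 lay between 1.02-fold and 1.24-fold. Rplp2, the partner of Rplp1, read 59.5 in normal brain and 62.6, 50.7, 46.3, 37.9, 32.9 and 32.8, so that normal was 1.57-fold above 72 hrs and 1.67-fold above 120 hrs. The Rplp2 probe was dim, though above the detection limit on all 7 arrays, and from 24 hrs on it lay below normal where Rplp0 lay above it, both before and after normalization.

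Rps24, a small subunit protein mutated in some cases of Diamond-Blackfan anemia in people, was below normal at each time, with 222 units in normal brain and 184, 169, 175, 193, 196 and 180 after occlusion. Normal was 1.24-fold to 1.39-fold above the later arrays. After normalization Rps23, of the decoding centre, and Rps7 stayed close to normal, at 0.851 to 1.10 and 0.867 to 1.05 of it. Rps29 was at 0.953 to 1.15 of normal. Rpl29 was below normal at all 6 times after quantile normalization, at 0.823 to 0.977 of it, but its deposited intensities of 11054 in normal brain and 9523, 11569, 11239, 15696, 12812 and 11549 were above normal at 5 of 6 times, so its direction depended on the scaling. The low values of Rps24, Rplp2 and Rpl3l held on the deposited scale at 72 hrs, where they were 0.868, 0.638 and 0.768 of normal.

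The pattern of symbols also caught genes that are not standard subunits of the ribosome in brain. Rpl22l1 is a paralog of Rpl22, Rpl7l1 of Rpl7 and Rpl3l of Rpl3, the last known from muscle and heart, and Rps19bp1 encodes a protein that binds Rps19. Rpl22 read 3946 in normal brain and 4194, 6130, 6720, 9433, 7937 and 6393 after occlusion, and Rpl22l1 read 221 and then 238, 212, 252, 239, 217 and 225. Rpl22 was 1.8-fold above normal at 72 hrs, while Rpl22l1 was at 0.870 of it. Rpl3 was at a log2 difference of 0.47 at 72 hrs and Rpl3l at -0.53, and Rpl7 at 0.62 and Rpl7l1 at 0.13. In each of these 3 pairs the standard gene stood further above normal at 72 hrs. A further pair by name, Rpl36a and Rpl36al1, went the other way, at -0.098 and 0.53 at 72 hrs. The Rpl36a probe was dim, at 13.4 units in normal brain. Rps19bp1 was highest at 48 hrs, at 1.37-fold, and at 0.807 of normal at 168 hrs. The standard genes of the pairs were chosen for this comparison after their values were seen.

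The course falls into an acute phase, here 12 and 24 hrs, and a recovery phase, here 48, 72, 120 and 168 hrs, as they are named for this model. Comparing the 4 recovery arrays with the 2 acute arrays gives an error, since the times within a phase stand in for replicates, and the p-values then measure the spread between times and not between animals. Across 9449 genes, limma called 0 genes at an adjusted p under 0.05 (0.0%), and 0 of the 63 members. At an unadjusted p under 0.05, 10 members were higher in recovery (15.9%, against 1152 or 12.2% of all genes) and 1, Rplp2, was lower (1.59%, against 1060 or 11.2%). The 10 were 7 large subunit genes (Rpl10, Rpl13a, Rpl22, Rpl27, Rpl39, Rpl7 and Rplp0) and 3 small subunit genes (Rps12, Rps15 and Rps9). The median recovery minus acute difference was 0.15 over the members, 0.13 in the large and 0.16 in the small subunit, and -0.035 over all genes.

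Rps12 had the smallest p of the members, with a recovery minus acute difference of 0.74 on the log2 scale (SE 0.16, limma unadjusted p = 0.0027, adjusted p = 0.080). Rpl39 differed by 0.56 (SE 0.14, limma adjusted p = 0.091) and Rpl10 by 0.46 (SE 0.14, limma adjusted p = 0.12). Rps9, of the mRNA entry site, differed by 0.46 and Rpl13a, which also has a known role in silencing translation of inflammatory mRNAs outside the ribosome, by 0.34, each with a limma adjusted p of 0.15. None of these passed the threshold with all 6 arrays. With the 48-hr array left out, 565 of the genes passed, and of the members Rps12 alone (limma adjusted p = 0.043, within a range of 0.043 to 0.36 over its alternatives), while leaving out the 24-hr array gave 6 genes and no member. The second probe of Rps9 was dim, at 7.14 to 33.0 units, and gave log2 differences from normal of 0.54 at 72 hrs and 0.62 at 168 hrs, beside 0.56 and 0.44 for the first.

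**Figure D4:**
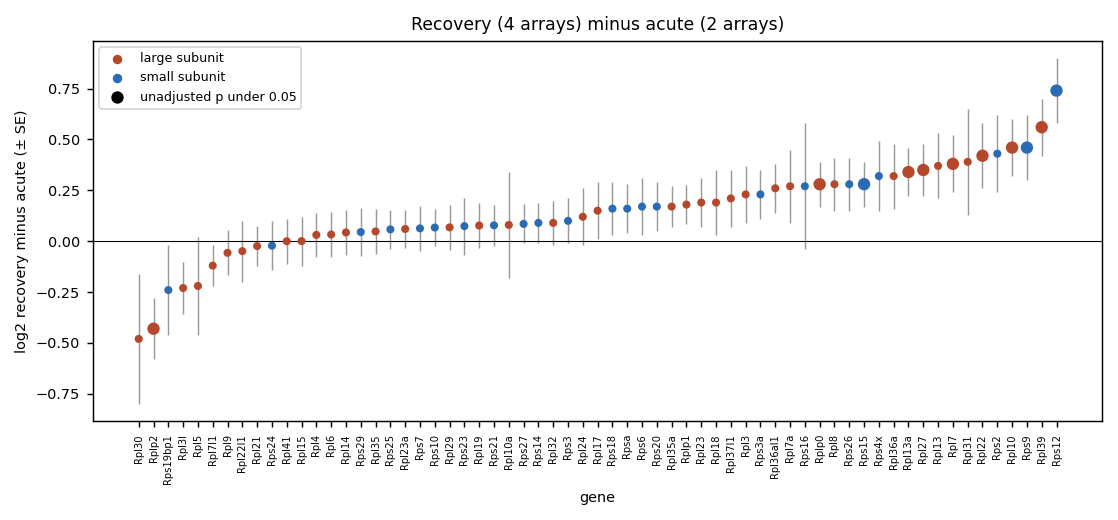
Recovery minus acute difference on the log2 scale with its SE (vertical) for 63 members in order (horizontal), 4 recovery and 2 acute arrays, large points for an unadjusted limma p under 0.05. Rps12, at 0.74, stands at the upper end and Rpl30, at -0.48 with an SE of 0.32, at the lower end.

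Other genes of protein synthesis were compared as lists. Rack1, a scaffold protein of the small subunit with a name outside the symbol pattern, read 3864 in normal brain and 4241, 5612, 6094, 9212, 7642 and 5775 after occlusion. Its fold of 1.79 at 72 hrs and 1.37 at 168 hrs followed the course of the high members. The 8 elongation factors on the array had median log2 differences of 0.14, 0.34, 0.28, 0.37, 0.27 and 0.24 at the 6 times, near those of the members. Within that list Eef1a2, the form of elongation factor 1A found in neurons and muscle, went from 8819 in normal brain to 5309 at 72 hrs and 4660 at 120 hrs, so that normal was 2.20-fold and 2.31-fold higher. Eef1a1, the form found in most cells and named here after its values were seen, was at 17796 in normal brain and 31386 at 72 hrs, a normalized fold of 1.35. The Eef1b2 and Eef1d subunits of its exchange factor were 1.69-fold and 1.64-fold above normal at 72 hrs. Eef2k, the kinase that switches elongation factor 2 off, was below normal at 12 hrs (0.616 of it) and 2.41-fold above at 72 hrs.

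Factors that act earlier in ribosome production had their highest median at 24 hrs. The 63 detected genes of ribosome biogenesis, which process rRNA and assemble subunits in the nucleolus, had medians of 0.16, 0.41, 0.10, 0.068, 0.028 and 0.0055 at the 6 times. At 24 hrs, 19 of 65 were 1.5-fold higher (10.8% of all genes) and 0 were 1.5-fold lower (9.55%). At 72 hrs these were 6 of 63 (14.6% of all genes) and 1 of 63 (13.9%). Between the phases 0 of 63 passed at an adjusted p, while 17 were lower (11.2% of all genes) and 0 higher (12.2%) in recovery at an unadjusted limma p under 0.05, with a median of -0.26. Fbl, the methyltransferase of box C/D particles, read 1113 in normal brain, 2331 at 24 hrs and 1406 at 168 hrs, with folds of 1.98 and 1.23. Npm1, a nucleolar chaperone, stayed up longer, with folds of 1.51, 2.01, 1.82, 2.11, 1.82 and 1.42. Mrto4 and Ddx56, which act in large subunit assembly, were 1.93-fold and 1.82-fold at 24 hrs and 1.2-fold and 1.11-fold at 168 hrs.

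The 23 detected initiation factors had medians of 0.10, 0.27, 0.14, 0.21, 0.16 and 0.027. Eif1a, needed for scanning, was early (2.53-fold at 24 hrs and 0.907 of normal at 168 hrs) and Eif4b, a helicase cofactor with a TOP mRNA in people, was late (1.22-fold at 24 hrs and 1.81-fold at 168 hrs). Eif3c was 1.55-fold to 1.65-fold from 24 to 120 hrs, and normal was 1.26-fold to 1.60-fold above all later arrays for Eif4a2. The 16 detected genes of mTOR and S6 kinase signaling, a list that also held Myc and Mycn, had medians from -0.38 to -0.12. Myc, which drives transcription of ribosome genes, read 72.5 in normal brain and 434, 536, 314, 311, 234 and 131 after occlusion, or 4.52-fold and 5.10-fold above normal at 12 and 24 hrs. Eif4ebp1, the translation repressor that mTOR inactivates, was 2.81-fold at 24 hrs and 3.79-fold at 72 hrs. Mycn and Tsc2, a brake on mTOR, were lower, with normal 2.16-fold and 1.61-fold above 72 hrs.

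The proteins of the mitochondrial ribosome stayed close to the median of all genes. The medians of its 57 detected proteins were -0.063, -0.016, 0.085, 0.0016, -0.077 and -0.024, beside 0.063, 0.29, 0.31, 0.39, 0.33 and 0.27 for the 63 cytosolic members. Without normalization the median at 72 hrs was 0.31, beside 0.18 for all genes and 0.83 for the cytosolic members. At 72 hrs 2 of the 57 were 1.5-fold higher, against 21 of the 63 and 14.6% of all genes. Mrpl18 was low at each time, from 991 units in normal brain to 26.7 at 48 hrs and 522 at 72 hrs.

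**Figure D5:**
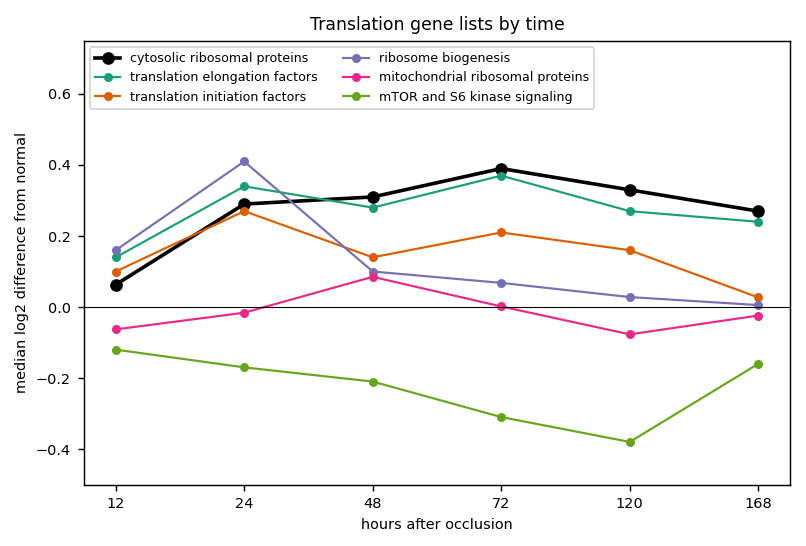
Median log2 difference from normal (vertical) at 6 times (horizontal) for the members and 5 other lists of protein synthesis. The biogenesis list is highest at 24 hrs, at 0.41, the cytosolic ribosomal proteins at 72 hrs, at 0.39, and the mitochondrial ribosomal proteins stay between -0.077 and 0.085.

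Marker genes of other cell types also differed between the arrays. In whole tissue, more cells of a type and more RNA per cell cannot be told apart. The 10 macrophage and phagocyte markers on the array had medians of 0.46, 0.89, 1.61, 2.43, 3.20 and 2.51, and their summed intensity was 6361 in normal brain and 6241 to 51274 after occlusion, highest at 120 hrs. Of the 10, 8 were detected on the normal array, with Ptprc and Cd163 below the limit there. Of the genes of DNA replication and cell division, the 13 to 16 detected at each time had medians of 0.017, 0.72, 1.73, 2.40, 2.25 and 0.91, highest at 72 hrs like the members. The 14 neuronal markers, detected on all arrays, had medians from -0.97 (120 hrs) to -0.043 (12 hrs), and their summed intensity was 35206 in normal brain and 19465 to 34499 after occlusion. Astrocyte and oligodendrocyte markers had medians of -0.77 to -0.24 and -1.03 to -0.18. Within the astrocyte list Gfap was 2.61-fold to 4.97-fold above normal, and the summed intensity of the list was 35671 in normal brain and 35277 to 49503 after occlusion, highest at 72 hrs. The oligodendrocyte sum was 23498 in normal brain and 12372 to 23008 after occlusion. Markers of choroid plexus and hypothalamus differed between arrays, with medians of -0.27 to 1.71. The hormone gene Avp was at 25.3, 19.8, 1.23, 1.62, 15.4 and 17.0-fold of normal in order of time. Pmch was 71.0-fold above normal at 120 hrs and at 0.688 of it at 168 hrs. Hemoglobin transcripts were highest early, Hbb being 23.3-fold above normal at 12 hrs, 2.50-fold at 72 hrs and at 0.299 of normal at 168 hrs. Alas2 was detected on no array. The part of these shifts in the levels of the ribosomal proteins was not tested.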

How the data were processed

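The authors hybridised biotin-labelled cRNA to a rat bead array. Per the labels and methods, the deposited intensity values were exported from GenomeStudio 1.8.0 (the methods name BeadStudio) after background subtraction. A 5S rRNA reference for normalization is also named, and which arrays it applied to is not stated. About 21% of values were below 0 (20.8% to 21.9%), and median intensity was 13.1 to 16.5. With 1 array per group, the number of arrays limits the precision. Genes were named from the platform annotation (13793 probes with 1 symbol). A second table of 48 columns (12 arrays of another design) matched no sample and was not used.

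Intensities were corrected with normexp (saddle, limma 3.58.1, R 4.3.3), offset by 16, put on the log2 scale and quantile normalized. To set a detection limit, values below 0 were mirrored and their 98th percentile taken on each array. Size rules used genes detected on either array compared. Phases were compared with lmFit and eBayes (two-sided, with trend and robust settings) in genes above the limit on 2 or more of the 6 arrays, with Benjamini-Hochberg adjustment. Tested on simulated data of 9449 genes, this phase comparison recovered 62 of 100 seeded 2-fold changes and 90 of 100 seeded 4-fold changes, with 11 unchanged genes called. The simulated noise was independent between arrays, whereas the real arrays of a phase are successive times of a course. These rates therefore do not give the power of the comparison on the real arrays. A planned permutation test of subunit medians between phases is not given, since its 15 splits cannot reach 0.05 and a list chosen with results known gets no p.

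Named genes were, per subunit, the 5 highest and 5 lowest by mean difference, those 2-fold from normal at any time, paralogs, the 5 smallest p between phases and up to 4 per other list by mean absolute difference; others are said to be added. The members and lists were chosen with earlier results of these data known.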

Additional observations from a re-analysis of the deposited data

How the results depend on the processing

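Of the subunit medians, gaps and counts under alternatives, 299 stayed within 1 SD over the members (medians and gaps) or within 1.5 times (counts), and 31 moved further. That SD was wide, from 0.17 at 12 hrs to 0.44 at 120 hrs in the large subunit, so few medians or gaps could move past it. A large subunit median of 0.70 in place of 0.39 at 72 hrs counted as within it, as did each change of sign below. The 299 is therefore no measure of how stable the medians and gaps were. The gap between subunits changed sign in 4 of 60 cases. At 48 hrs it went from -0.014 to 0.014 with no background model and with quantiles from other genes. Without the paralog list it went to 0.047 at 48 hrs, and from -0.0084 to 0.049 at 72 hrs. That list held Rpl22l1, Rpl3l, Rpl7l1 and Rps19bp1. It also held Rps4x, whose mean difference of 0.46 was among the highest of the small subunit. With median scaling the medians at 72 hrs were 0.70 (large) and 0.71 (small). Scaling moved most. Counts of members at least 1.5-fold from normal in either direction were 0, 4, 10, 22, 17 and 5 at 12, 24, 48, 72, 120 and 168 hrs. With median scaling those from 48 to 168 hrs were 17, 40, 28 and 12, and without normalization those from 12 to 120 hrs were 1, 13, 20, 49 and 34. Counts at least 2-fold from normal were 0, 0, 0, 5, 1 and 0. From 24 to 120 hrs they became 1, 1, 11 and 3 with median scaling, and 1, 1, 19 and 8 without normalization. The share over all genes also rose with the scaling. At 72 hrs 63.5% of members were 1.5-fold higher with median scaling, against 18.7% of all genes. Without normalization it was 77.8% against 23.2%. For a 2-fold higher level without normalization, members and all genes were at 30.2% and 11.7% at 72 hrs, but at 12.7% and 11.5% at 120 hrs. Without normalization the 72-hr medians were 0.82 (large) and 0.83 (small). An offset of 1, no background model and no detection filter each gave 1 member 1.5-fold from normal at 12 hrs. An offset of 1 gave 1 member 2-fold from normal at 24 hrs, and no background model gave 3, 1 and 2 on the 24, 48 and 120-hr arrays. Quantile normalization fitted on other genes, an alternative chosen after seeing the data, gave 8 members 1.5-fold from normal at 168 hrs. No detection filter gave 13 genes past the threshold between phases, against 0. Leaving out 1 array at a time gave 0 to 565 genes and 0 to 1 members, the upper values without the 48-hr array. The adjusted p of Rps12 ranged from 0.043 to 0.36 over its alternatives. The causes were not tested. No paired analysis was possible because each group has 1 array and the labels carry no replicate numbers. The arrays are single, so no difference from normal has a replicate error.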
